A study of Schmidtea mediterranea with 6 samples.

Results

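The transcription factors soxP-1 (SMESG000010063.1), soxP-2 (SMESG000074761.1) and p53 (SMESG000078256.1) were followed in planarian stem cells after depletion of Smed-exoc3. They were chosen by name, as 3 of the 30917 gene models counted, and all 3 were among the 14700 models with enough reads to be tested. RNA was taken from X1 cells, the cycling and irradiation-sensitive fraction that flow cytometry isolates from dissociated animals of the flatworm Schmidtea mediterranea. Animals of 5 to 5.5 mm received double-stranded RNA by injection, either against Smed-exoc3 (the exoc3(RNAi) group) or against gfp, which has no match in the planarian genome (the control group, gfp(RNAi)). Per the labels, injections were given on 3 consecutive days, in 2 rounds, the later one 12 days after the first. Each group had 3 libraries, which the study describes as biological replicates, each from several pooled animals. The p-values below therefore measure the spread between pools and not between single animals. All animals were starved worms of the asexual strain, so that both groups share this state.

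Neoblasts are the only dividing somatic cells of planarians and give rise to every tissue of the animal. Within this population a sigma class, marked by soxP-1 and soxP-2, is distinguished from a zeta class, in which p53 is expressed and which produces the epidermis. SOX proteins bind DNA through an HMG box. Planarian soxP-1 is required for neoblast maintenance, whereas p53, the homologue of the vertebrate tumour suppressor, acts in neoblast self-renewal and in the epidermal lineage. The names used here are those that the study paired with the gene models. The model of soxP-1 carries published records of SOXP-1 and of soxP-4, so that its values cannot be assigned to either record alone. The model of soxP-2 is annotated with an HMG box and also with Kelch motifs, and reads on any stretch of it count towards soxP-2. The model of p53 is annotated with a p53 DNA-binding domain.

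The libraries held 28897363 to 37525894 reads assigned to genes. Pairs of libraries within a group differed by more than sampling noise, with a chi-square per degree of freedom of 1.33 to 7.75, and none was treated as a repeat. The highest values, 7.75 and 7.05, were those of exoc3(RNAi) replicate 3 against replicates 1 and 2. Between exoc3(RNAi) replicates 1 and 2 the value was 1.36. Smed-exoc3 itself, a subunit of the exocyst that tethers secretory vesicles, had 70.1, 74.0 and 72.7 CPM in gfp(RNAi) replicates 1 to 3, where CPM are read counts scaled to a common library total with TMM factors. In exoc3(RNAi) it had 31.9, 31.2 and 42.4 CPM. This log2 fold change of -1.04 had an SE of 0.09 (adjusted p = 5.7e-07, edgeR quasi-likelihood test), and replicate 3 retained the most Smed-exoc3. Of the 5 neoblast markers fixed for the check of the X1 label, smedwi-2, smedwi-3, vasa-1, vasa-2 and cyclin B, none was near 0. Their summed level was 10370 to 10570 CPM in gfp(RNAi) and 8048 to 8811 CPM in exoc3(RNAi). Most of this sum was smedwi-2 and smedwi-3, which fell, as did vasa-1. The mean of vasa-2 rose from 682.2 to 811 CPM and that of cyclin B from 118.7 to 137.2 CPM.

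All 3 regulators were lower in exoc3(RNAi) than in gfp(RNAi) X1 cells, and for none of them did the groups overlap. The decrease was largest for soxP-2, at 28.1%, followed by p53 at 16.3% and soxP-1 at 11.7%, and the intervals of the last pair, given below, overlap. Across the whole comparison 53% of the tested genes were called at an adjusted p under 0.05, 27.1% of the tested genes were called as lower, and the libraries of the groups did not overlap for 60.8%. Being called was therefore common among all genes, and the count of 3 called regulators of 3 is to be read against that share. The groups of sorted cells are bulk samples, in which fewer cells of a type and less RNA of a gene per cell cannot be told apart.

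soxP-2 showed the largest change of the 3. Its reads numbered 3988, 4167 and 4208 in gfp(RNAi) replicates 1 to 3 and 3557, 2849 and 3052 in exoc3(RNAi). Scaled to library size and composition, these were 124.5, 134.7 and 126.4 CPM against 93.6, 97.0 and 86.7 CPM. The lowest gfp(RNAi) library lay well above the highest exoc3(RNAi) library. The mean fell from 128.5 ± 5.44 to 92.4 ± 5.25 CPM (SD, n = 3 each). On the log2 scale the change was -0.48 with an SE of 0.05 (adjusted p = 1.7e-06, edgeR). The 95% confidence interval of the decrease was 23.1 to 32.9%. Of all tested genes 10.7% had a lower log2 fold change than soxP-2, and of the genes called lower 35.6% fell further.

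For p53, the reads numbered 6946, 6616 and 7074 in gfp(RNAi) and 6490, 5056 and 6883 in exoc3(RNAi). The scaled values were 216.8, 213.9 and 212.5 CPM in gfp(RNAi) and 170.8, 172.1 and 195.5 CPM in exoc3(RNAi). The gfp(RNAi) libraries were nearly equal, whereas exoc3(RNAi) replicate 3 lay between the other exoc3(RNAi) libraries and the controls. The mean fell from 214.4 ± 2.21 to 179.5 ± 13.9 CPM (SD, n = 3 each). On the log2 scale this was -0.26 with an SE of 0.05 (adjusted p = 0.00042, edgeR). The decrease of 16.3% had a 95% confidence interval of 10.3 to 21.9%. Without exoc3(RNAi) replicate 3 the log2 fold change was -0.32.

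soxP-1 changed least. It had 4411, 4126 and 4596 reads in gfp(RNAi) and 4604, 3656 and 4082 reads in exoc3(RNAi). As raw counts these overlap, since exoc3(RNAi) replicate 1 was the deepest library. On the CPM scale the values were 137.7, 133.4 and 138.0 in gfp(RNAi) and 121.1, 124.5 and 115.9 in exoc3(RNAi), with no overlap. The mean was 136.4 ± 2.60 CPM in gfp(RNAi) and 120.5 ± 4.29 CPM in exoc3(RNAi) (SD, n = 3 each). The corresponding log2 fold change, -0.18, had an SE of 0.04 (adjusted p = 0.00099, edgeR), and the 95% confidence interval of the decrease was 6.75 to 16.3%. With upper quartile factors the log2 fold change of soxP-1 was -0.10 (edgeR adjusted p = 0.018). soxP-2 and p53 moved by a similar amount under this scaling, to -0.40 and -0.18. Among genes called lower, 89.2% fell further than soxP-1.

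**Figure D1:**
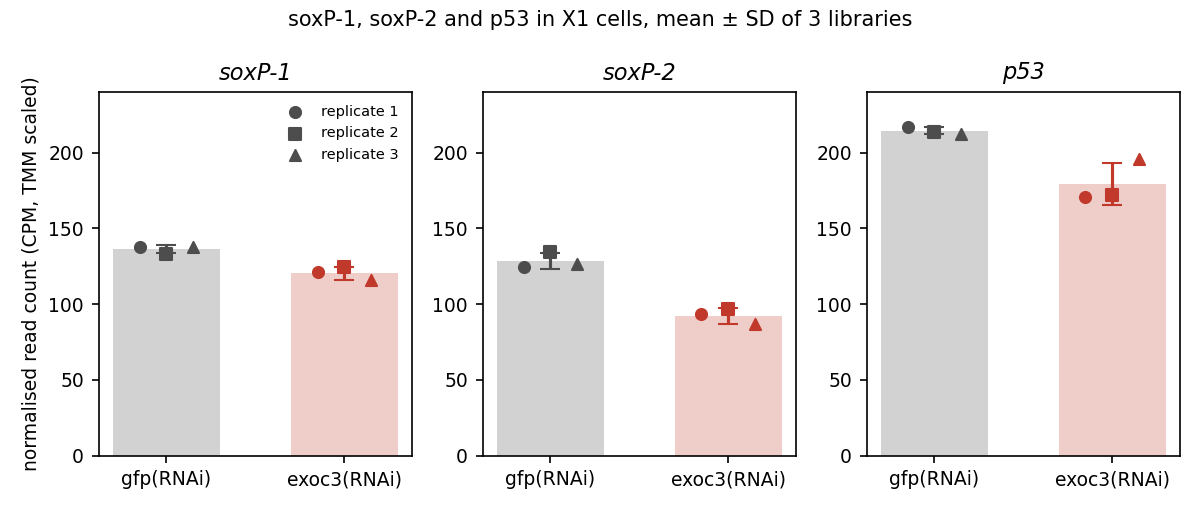
Normalised read counts (CPM, TMM scaled, axis from 0) of soxP-1, soxP-2 and p53 in 3 gfp(RNAi) and 3 exoc3(RNAi) libraries. Bars are group means, error bars the SD, and symbols the replicates. In each panel every exoc3(RNAi) library lies below every gfp(RNAi) library, and p53 in exoc3(RNAi) replicate 3 (195.5 CPM) stands above the other exoc3(RNAi) libraries.

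Permuting the 6 libraries (exact test, two-sided) returned p = 0.1 for each gene, and a design of 3 against 3 cannot give less. The depth behind these values was high. Counting error alone gives a coefficient of variation of 1.54% for soxP-1, 1.66% for soxP-2 and 1.24% for p53 per library. The SD of p53 was 0.853 times that error in gfp(RNAi) and 6.08 times in exoc3(RNAi). For soxP-2 the corresponding values were 2.71 and 3.19, and for soxP-1 they were 1.26 and 2.28. The exoc3(RNAi) libraries therefore differed in p53 by more than reads of this number vary by chance, and most of that spread came from replicate 3.

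The direction and the call of each gene held under all 14 alternative settings, shown in the plot of log2 fold changes by setting. The values ranged from -0.20 to -0.10 for soxP-1, from -0.51 to -0.40 for soxP-2 and from -0.32 to -0.18 for p53. The ranges of soxP-2 and of the other genes did not meet. Those of soxP-1 and p53 did.

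**Figure D2:**
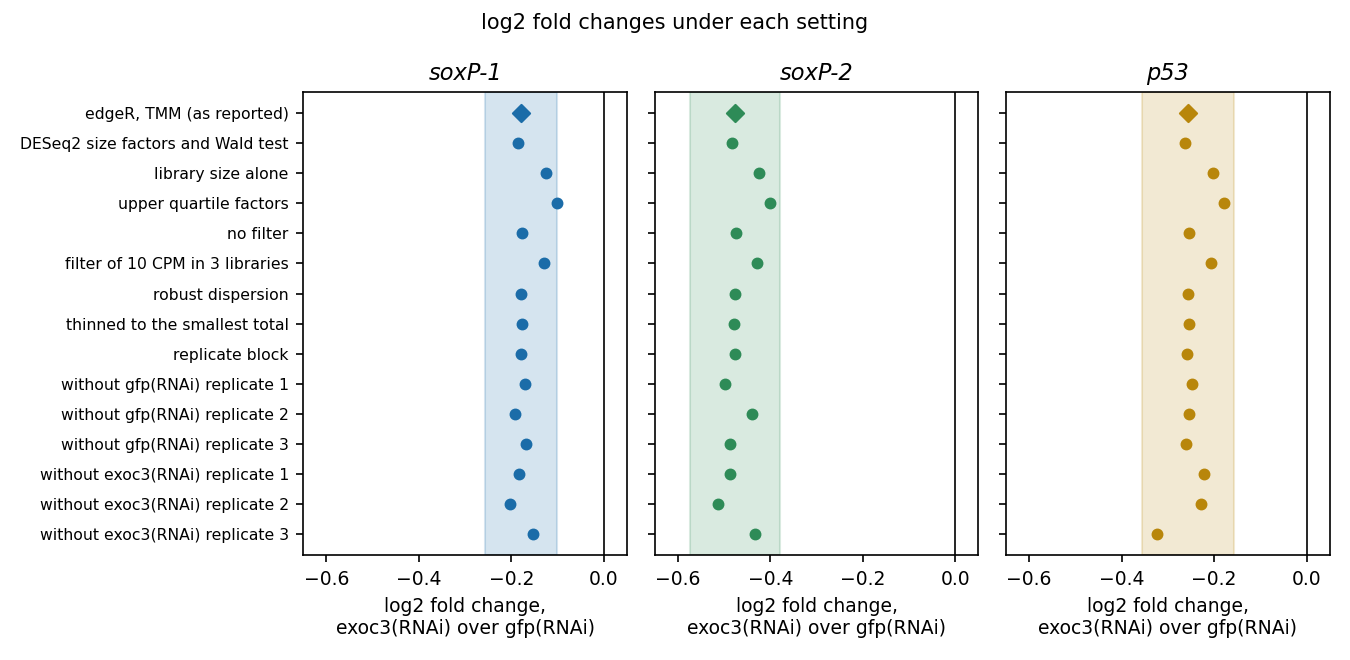
Log2 fold changes of soxP-1, soxP-2 and p53 (exoc3(RNAi) over gfp(RNAi), x axis) under the reported setting (diamond) and 14 alternatives (circles). The shaded band is the 95% confidence interval of the reported value, and every point lies below 0.

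Whether the 3 genes changed unequally was asked with count ratios within each library, which do not depend on scaling. The ratio of soxP-2 to soxP-1 reads was 0.904, 1.01 and 0.916 in gfp(RNAi) and 0.773, 0.779 and 0.748 in exoc3(RNAi). The groups did not overlap, and the log2 ratio changed by -0.30. Each exoc3(RNAi) library thus held fewer soxP-2 reads per soxP-1 read than any control. Exact permutation of the libraries, two-sided, returned p = 0.1, which is its lower limit, and 0.15 after adjustment over the 3 pairs.

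Between soxP-2 and p53 the log2 ratio changed by -0.22, again without overlap of the groups (exact permutation p = 0.1, adjusted 0.15). The ratio was 0.574, 0.630 and 0.595 in gfp(RNAi) against 0.548, 0.563 and 0.443 in exoc3(RNAi). Without exoc3(RNAi) replicate 3 the change was -0.11. The size of this difference thus rested largely on that library.

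For p53 against soxP-1 the groups overlapped. The ratio was 1.58, 1.60 and 1.54 in gfp(RNAi) and 1.41, 1.38 and 1.69 in exoc3(RNAi). The mean change of the log2 ratio was -0.08 (exact permutation p = 0.4, adjusted 0.4). Leaving out exoc3(RNAi) replicate 3 gave -0.17, and leaving out exoc3(RNAi) replicate 1 or 2 gave -0.04 or -0.03. The ratio lay below all controls in exoc3(RNAi) replicates 1 and 2 and above them in replicate 3.

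The Piwi protein gene smedwi-2, whose product is needed for the function of neoblast progeny, served as a common reference. It fell from 4833 ± 85.6 to 3461 ± 138 CPM (SD, n = 3 each), or by 0.48 on the log2 scale, with an SE of 0.03 (adjusted p = 8.7e-08, edgeR). Of the 5 neoblast markers it fell most. The log2 fold change was -0.26 for smedwi-3, -0.18 for vasa-1, 0.21 for cyclin B and 0.25 for vasa-2. Ratios to those markers were not taken, so that the ratios below hold for this reference only. The log2 ratio of soxP-2 to smedwi-2 was -5.31, -5.16 and -5.23 in gfp(RNAi) and -5.23, -5.20 and -5.25 in exoc3(RNAi). The change was 0.006 with overlapping groups (exact permutation p = 0.9, adjusted 0.9), within a range of -0.03 to 0.04 when 1 library was left out.

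For soxP-1 the ratio to smedwi-2 was higher in each exoc3(RNAi) library than in any control, although both genes fell on the CPM scale. Its log2 value was -5.16, -5.18 and -5.11 in gfp(RNAi) and -4.86, -4.84 and -4.83 in exoc3(RNAi), a change of 0.30 with SDs of 0.04 and 0.01. The log2 ratio of p53 to smedwi-2 changed by 0.22, from -4.51, -4.50 and -4.48 to -4.37, -4.37 and -4.08. Without exoc3(RNAi) replicate 3 it changed by 0.13. Neither ratio had overlapping groups, and both exact permutation tests gave p = 0.1 (adjusted 0.15 over the 3 genes).

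**Figure D3:**
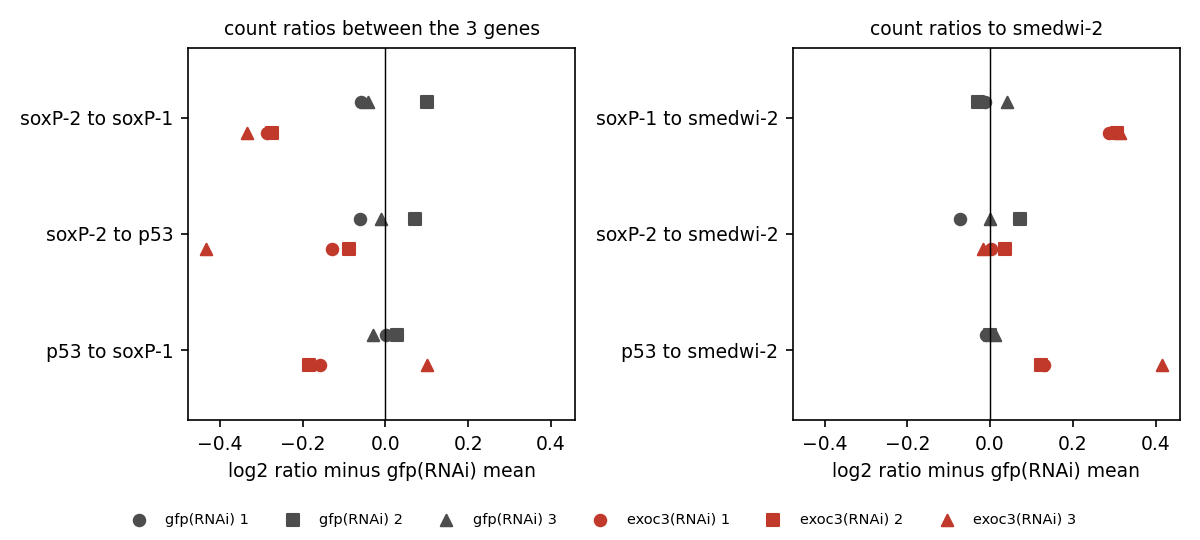
Log2 count ratios per library, minus the gfp(RNAi) mean of the same ratio, between the 3 genes (left) and to smedwi-2 (right). Symbols are libraries. The ratio of soxP-2 to smedwi-2 overlaps between the groups, that of soxP-1 to smedwi-2 is 0.30 higher in exoc3(RNAi), and replicate 3 stands apart wherever p53 is part of the ratio.

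The exoc3(RNAi) libraries were then compared one by one. p53 was at 79.7%, 80.3% and 91.2% of the gfp(RNAi) mean in replicates 1 to 3. soxP-1 was at 88.8%, 91.3% and 85.0%, and soxP-2 at 72.8%, 75.5% and 67.5%. In replicate 3, therefore, p53 was nearest to the controls while soxP-1 and soxP-2 were farthest from them. The log2 ratio of replicate 3 to the mean of replicates 1 and 2 was 0.19 for p53, -0.08 for soxP-1 and -0.14 for soxP-2. Among 7700 genes with at least 10 CPM, from which the middle 90% had values of -0.20 to 0.22, p53 stood at the 94.0 percentile, soxP-1 at the 32.4 and soxP-2 at the 15.4.

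Smed-exoc3 had a value of 0.43 on the same measure. prog-1, a marker of early epidermal progeny, had 0.64, with 30.7, 31.4 and 48.3 CPM in exoc3(RNAi) replicates 1 to 3. Other genes of the prog-1 family went the other way. Their values were -0.23 for prog-1-4, -0.15 for prog-1-5, -0.09 for prog-1-6, -0.11 for prog-1-7 and -0.15 for prog-1-10. Most other neoblast and epidermal genes lay on the other side of 0. These were 22 of the 24 neoblast regulators, which include all 5 neoblast markers, and 16 of the 20 genes of the epidermal progenitor list. p53 and prog-1 belong to that last list. The median of the 7700 genes was itself -0.04, so that values below 0 were common. For genes that rose, such as vasa-2 and cyclin B, a value below 0 places replicate 3 nearer to the controls. Over all genes, replicate 3 also differed most from the others of its group. The part of the weaker Smed-exoc3 depletion in the p53 value of this library was not tested.

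**Figure D4:**
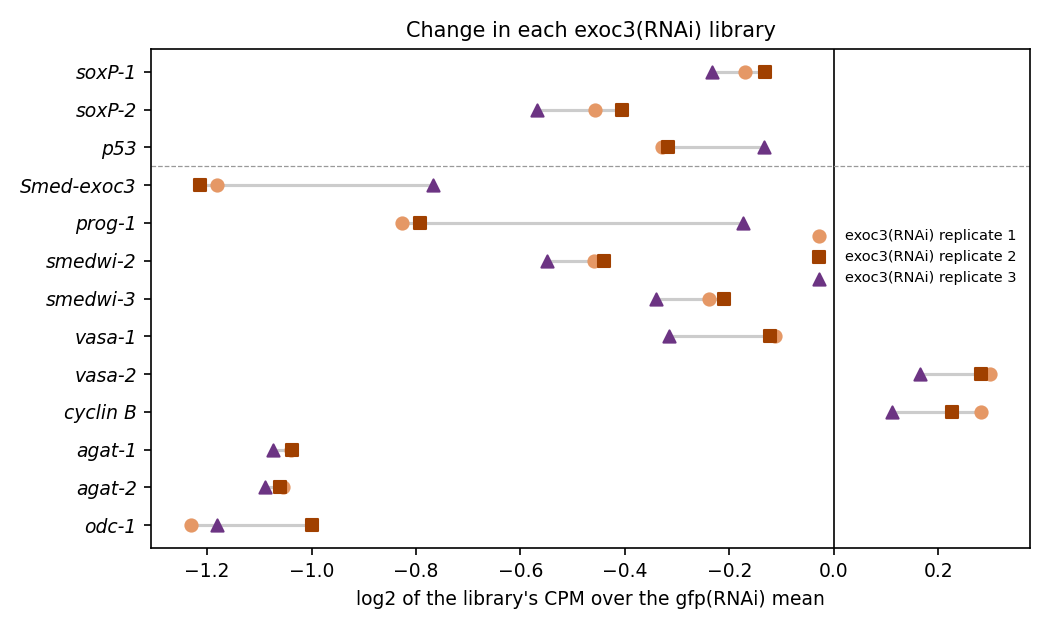
Log2 of the CPM of each exoc3(RNAi) library over the gfp(RNAi) mean for soxP-1, soxP-2 and p53 (above the dashed line) and for Smed-exoc3, neoblast markers and epidermal markers (below it). Replicate 3 (triangle) is the exoc3(RNAi) library closest to the gfp(RNAi) mean in p53, Smed-exoc3 and prog-1, and in vasa-2 and cyclin B, which rose. It lies farthest in soxP-1, soxP-2, smedwi-2, smedwi-3, vasa-1, agat-1 and agat-2, and between the others in odc-1.

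The 3 genes were next placed among other regulators of neoblasts. These lists were drawn from the study's annotation, which mostly holds genes that the study itself called in the same libraries, so that their number of calls is no independent evidence and only the direction and size are described. Of 24 neoblast regulators, 15 fell and 9 rose, with a median log2 fold change of -0.19. The median of all tested genes was 0.02, and 51.2% of all called genes were lower. soxP-2 lay near the lower end of these regulators, whose values ranged from -0.55 to 0.50, and soxP-1 lay beside their median.

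Among the RNA-binding proteins of neoblasts, 4 of 5 fell. The Piwi gene smedwi-3 had a log2 fold change of -0.26, the same as p53. The DEAD-box helicase gene vasa-1 had -0.18, the same as soxP-1, and KHD-1 had -0.17. vasa-2, a related helicase, rose by 0.25 on the log2 scale (682.2 to 811 CPM). The largest SE of these was 0.05, and the edgeR adjusted p-values of the group were at most 0.0043.

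Chromatin regulators fell in 8 of 11 cases, with a median of -0.27. The largest decreases were those of the histone H3 lysine methyltransferase genes SET1 at -0.55 (SE 0.05) and trr-1 at -0.50 (SE 0.04), both similar in size to soxP-2. The nucleosome remodeller CHD4 followed at -0.40, the Polycomb methyltransferase EZH at -0.39 and its partner SZ12-1 at -0.27. Of the histone chaperone FACT, SPT16 was at -0.37 and SSRP1 at -0.19. RBBP5, a subunit of SET1-type complexes, was at -0.23. The deacetylase HDAC-1 at 0.12, the histone-binding RBBP4-1 at 0.31 and the histone variant h2a.z-1 at 0.50 rose instead. h2a.z-1 was measured at low means of 7.96 CPM in gfp(RNAi) and 11.3 CPM in exoc3(RNAi).

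Of the 4 transcription factors of this list, 3 rose, whereas soxP-1, soxP-2 and p53 fell. TCF15 had 70.7, 64.6 and 64.6 CPM in gfp(RNAi) and 90.1, 89.5 and 85.5 CPM in exoc3(RNAi), a rise of 0.41 on the log2 scale. E2F4-1, of the E2F family of cell cycle regulators, rose by 0.16 and runt-1, a Runx-type factor, by 0.47, the last at a low level of 2.85 to 4.74 CPM. JUNLI-1 fell by 0.16. Of the signalling genes, the kinase gene NLK-1 had a log2 fold change of 0.21 and the fibroblast growth factor receptor gene FGFR4 one of -0.46. tgs-1, another neoblast gene of the list, fell by 0.34, and cyclin B, required for entry into mitosis, rose by 0.21.

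The HMG box is the domain that soxP-1 and soxP-2 share, and 7 other annotated genes carry it. Of these, 5 fell and 2 rose, with a median of -0.22. PBRM1, a chromatin remodeller subunit, fell from 379.1 ± 4.22 to 258.4 ± 14.3 CPM (SD, n = 3 each), which is 0.55 lower in log2 units, and TCF-2 fell by 0.54. SMARCE1-like, named for another remodeller subunit, was at -0.37, TCF-3 at -0.22 and SSRP1 at the value given above. high mobility group-2 rose by 0.34, from 156.3 to 198.1 CPM, and SMESG000034017.1, with no further name, by 0.26. soxP-2 therefore lay closer to PBRM1 and TCF-2, and soxP-1 closer to SSRP1 and TCF-3.

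Genes annotated with a p53-like DNA-binding fold or with a link to p53 showed no common direction: 3 fell and 3 rose, with a median of 0.01. A gene with a Rel homology domain, SMESG000009320.1, fell from 524.2 ± 4.96 to 334.0 ± 8.09 CPM (SD, n = 3 each). Its log2 fold change was -0.65 (SE 0.03), larger than that of p53. TBX20, a T-box factor, rose from 5.07 ± 0.459 to 11.5 ± 0.602 CPM, which is 1.19 in log2 units, and runt-1 is given above. TP53BP1, which binds p53 in mammals, fell by 0.42. Of the genes whose mammalian relatives are induced by p53, RRM2B, a ribonucleotide reductase subunit, rose by 0.39, and CYFIP2, an actin regulator, fell by 0.38.

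**Figure D5:**
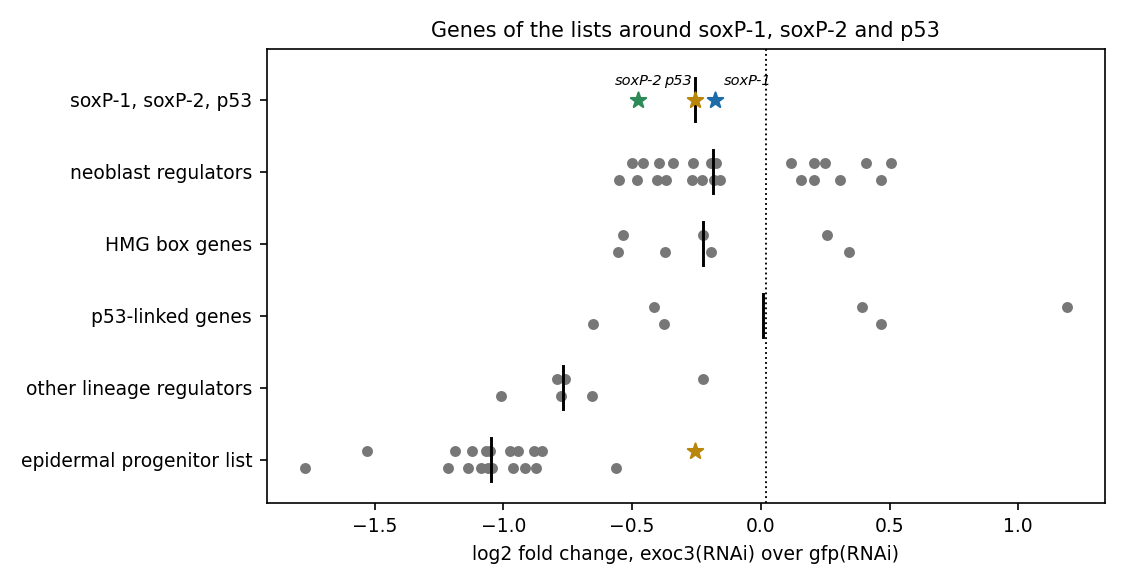
Log2 fold changes (exoc3(RNAi) over gfp(RNAi)) of soxP-1, soxP-2 and p53 (stars) and of the listed genes (circles). Black bars are list medians and the dotted line is the median of all tested genes (0.02). The epidermal progenitor list (median -1.05) lies apart from the neoblast regulators (median -0.19), and its member p53 lies at -0.26.

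p53 is also a member of a published list of epidermal progenitor genes, of which 20 were followed here. These 20 come from the study's annotation, mostly of genes that it called in the same libraries. Their number of calls is therefore no independent evidence. All 20 fell. Among all tested genes 27.1% were called lower, and among all called genes 51.2% were lower. The median log2 fold change of the 20 was -1.05, and p53 ranked last among them in the size of its decrease. Its neighbour in rank was prog-1 at -0.56 (SE 0.13, edgeR adjusted p = 0.0023). agat-1 and agat-2, markers of late epidermal progeny, had values of -1.05 and -1.07, and odc-1 had -1.14. The summed level of the list was 3077 to 3164 CPM in gfp(RNAi) and 1524 to 1579 CPM in exoc3(RNAi), and no listed gene was at 0. The part of this fall in the p53 value was not tested. In the same cells soxP-1 and soxP-2, outside this list, had the changes given above.

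Of a published list of neoblast genes, 260 were followed here, again mostly genes that the study called in the same libraries. Among these 260, soxP-2 ranked 22 from the most lowered. In this selection 153 genes fell and 107 rose, with a median of -0.15. Directly above soxP-2 stood a gene described as GK14214 gene product at -0.49.

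Lists of genes that mark clusters of smedwi-1+ cells place the 3 genes once more. Like the lists above, they hold mostly genes that the study itself called in the same libraries. The ranks and medians therefore describe such genes and not whole clusters. Both SOX genes belong to cluster 3, where soxP-2 ranked 12 and soxP-1 ranked 35 from the most lowered of 56 genes (39 fell and 17 rose, median -0.26). Next to soxP-2 stood non-SMC condensin I complex subunit H at -0.45, and next to soxP-1 stood vasa-1. In cluster 5 soxP-1 ranked 145 of 227 (158 fell, 68 rose and 1 was not called, median -0.27), and in cluster 6 it ranked 84 (90 fell and 45 rose, median -0.27). Its neighbours there were Down syndrome cell adhesion molecule at -0.18 in both and JUNLI-1 in cluster 6. The decrease of soxP-1 was thus smaller than the median of the listed genes in each of its clusters, and that of soxP-2 larger.

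p53 belongs to clusters 1 and 8. In cluster 1 it ranked 16 of 42 (26 fell and 16 rose, median -0.18), next to minichromosome maintenance complex component 6, a subunit of the replicative helicase, at -0.25. In cluster 8 it ranked 16 of 65 genes, of which 30 fell and 35 rose with a median of 0.17. Its neighbours were serine protease 23 at -0.26 and Separin, which releases sister chromatids, at -0.25. The decrease of p53 thus stands in a cluster whose listed genes, mostly ones the study called, had a median above 0.

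Lastly, the named genes whose profile over the 6 libraries was most like each regulator were sought among 7699 other genes with at least 10 CPM. Likeness was the root mean square difference of log2 CPM after centring each gene on its mean, a description without a test. soxP-1 was closest to DEAD box polypeptide 52, an RNA helicase gene, at 0.015. Notchless protein 1, of ribosome assembly, followed at 0.016 and JUNLI-1 at 0.017. The first fell from 51.5 to 45.8 CPM.

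soxP-2 was closest to CG10333, named after a fly gene, at 0.016, which was the nearest of all genes compared and fell from 270.2 to 195.2 CPM. It was followed by Condensin complex subunit 2, of chromosome condensation, at 0.021 and RAD54-like 2, named for a helicase-like chromatin protein, at 0.022. For p53 the nearest of all was septin 7, a cytoskeletal GTPase gene, at 0.022. Among the named genes archain 1, a vesicle coat protein gene, came next at 0.039, before coatomer protein complex subunit alpha at 0.040.

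None of the 3 regulators was among the nearest genes of another on this measure. soxP-1 and p53 differed by 0.10, and soxP-2 differed from each of them by 0.16. From soxP-1, 2485 genes were nearer than p53 and 4465 were nearer than soxP-2. From p53, 1075 genes were nearer than soxP-1 and 3421 were nearer than soxP-2. From soxP-2, 2312 genes were nearer than soxP-1 and 2321 were nearer than p53.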

How the data were processed

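Per the labels, X1 RNA was extracted with Trizol and made into stranded mRNA libraries. The authors demultiplexed with bcl2fastq 1.8.4, aligned with STAR 2.7.2b to dd_Smes_g4 and counted uniquely aligned, reverse-strand reads per gene model with featureCounts 1.6.5. The deposited values are raw counts, with no row outside genes. Reads shared with near-identical genes were left out, which can lower counts of close paralogues.

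Tests used edgeR 4.0.16 in R 4.3.3: filterByExpr (minimum count 10), TMM factors, and the quasi-likelihood F test over the 6 libraries, Benjamini-Hochberg adjusted over 14700 genes and called under 0.05. SEs came from the log2 fold change and F. On simulated data with 200 of 14700 genes changed, the fit recovered 67.4% of log2 changes of 0.5 and 90% of log2 changes of 1. Smaller changes, such as those of the 3 regulators, were not simulated. DESeq2 1.42.0, other scalings and filters, thinning, a replicate block and leaving out each library were alternatives. Members and lists were chosen with earlier results of these data known. Genes named were those of the small lists, rank neighbours of the 3 regulators in larger lists, and the 3 named genes nearest in profile to each. Coordinates, lengths and sequences were not used here, so levels of different genes were not compared.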

Additional observations from a re-analysis of the deposited data

How the results depend on the processing

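The log2 fold changes of soxP-1, soxP-2, p53 and Smed-exoc3 kept their direction and call under all 14 alternatives, and the counts of lower genes in the 4 small lists moved by at most 1. DESeq2 gave adjusted p = 0.00013, 1.1e-18 and 4.9e-07 for soxP-1, soxP-2 and p53. Genes called numbered 7784, against 6339 with DESeq2, 8247 with upper quartile factors and 6642 to 8115 with 1 library left out. With upper quartile factors 39.1% of called genes were lower, against 51.2%.

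The ratio of soxP-2 to smedwi-2 changed sign without gfp(RNAi) replicate 1 (-0.030) and without exoc3(RNAi) replicate 2 (-0.0085), in a range of -0.030 to 0.042 when 1 library was left out, and the cause was not tested. Libraries of equal replicate number had correlations of deviations from their group means of -0.006, 0.009 and -0.03. Genes with few reads weighed as much as others in this check, so it cannot exclude a pairing. With a replicate block 7642 genes were called, and soxP-1 had a log2 fold change of -0.18 (edgeR adjusted p = 0.0027), soxP-2 -0.48 (9.3e-07) and p53 -0.26 (0.00037). The log2 ratio of p53 to soxP-1 had an SD of 0.16 in exoc3(RNAi) against 0.03 in gfp(RNAi), and its change of -0.08 was -0.17 without exoc3(RNAi) replicate 3.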

Other observations

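A short list held 6 gene models of regulators of lineages other than the epidermis. All 6 fell in exoc3(RNAi) X1 cells, with a median log2 fold change of -0.77. Among all tested genes 27.1% were called lower and the median was 0.02, and among all called genes 51.2% were lower. The libraries of the groups did not overlap for any of the 6, as for 60.8% of all tested genes. sim, a neural factor, fell from 57.4 ± 0.191 to 28.5 ± 2.80 CPM (SD, n = 3 each), or -1.01 on the log2 scale with an SE of 0.06 (adjusted p = 3.2e-08, edgeR). myoD, a muscle factor, fell from 29.5 ± 0.109 to 17.2 ± 1.27 CPM (log2 fold change -0.78), and foxP, named Smed-Albino, from 68.9 ± 2.81 to 43.7 ± 1.44 CPM (log2 fold change -0.66). The gut factor gata456 is counted on a pair of models, with log2 fold changes of -0.79 and -0.76 at no more than 9.89 CPM in any library. coe, another neural factor, changed least, at -0.23 (SE 0.07, edgeR adjusted p = 0.020). The summed level of the 6 models was 189 to 196.2 CPM in gfp(RNAi) and 114.2 to 121.2 CPM in exoc3(RNAi). These genes also come from the study's own annotation of changed genes, so that their number is no independent evidence.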
